A study of Oryza sativa with 12 samples.

Results

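Roots of the rice mutant Os1400 grown with ample and with scarce phosphate (Pi) were compared, using 6 of the 12 RNA-seq libraries of the series, 3 from low-Pi and 3 from +Pi. All 6 came from Os1400-12SIII (genotype max1-1400), 1 CRISPR/Cas9 line of the Nipponbare cultivar in which both alleles of OsMAX1-1400 (Os01g0701400) are disrupted, so nothing here separates the mutation from this line. OsMAX1-1400 is a cytochrome P450 that makes the strigolactone (SL) orobanchol. The roots were 3 weeks old, from seedlings in hydroponic culture that spent the last 2 weeks in low-Pi solution with 0.004 mM phosphate or in +Pi solution, for which the study's methods give 0.4 mM elsewhere. The other 6 libraries are of unedited Nipponbare (WT), 3 from each solution. Members were all genes with a row in both deposited count tables that passed a usual filter on low counts. These were 27647 of the 30742 genes with a row in both tables, and 33932 genes had a row in either. OsMAX1-1400 had no count row and was listed at 0 FPKM in all 12 libraries, WT included, so it did not check the genotype labels. The study describes the RNA-seq replicates as biological, and the labels do not say whether each was 1 plant or a pool.

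Plants short of Pi take up more of it, recycle it from lipids and esters, and lower its use. In rice, SPX proteins bind the transcription factor PHR2 while Pi is ample. As Pi runs low PHR2 is freed and switches on Pi transporters of the PHT1 family, acid phosphatases, SPX genes and the RNA IPS1. Roots also make and exude SLs, which attract mycorrhizal fungi.

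The Os1400 libraries held 29596562 to 40652094 counts, and 3 counts, the limit that a count of 0 allows for counting error, equal 0.0738 to 0.101 counts scaled to equal library size (CPM). Between 28082 and 30375 genes had a count in an Os1400 library, against 17711 to 22077 in a WT low-Pi library. Replicates correlated at 0.930 to 0.957 in log CPM across genes. On a multidimensional scaling plot the supplies separated along the axis with most variance (46.2%). On the next axis low-Pi replicate 2 stood apart, at -2.30 against 1.202 and 1.64 for the other low-Pi libraries. The counts of each Pi supply were deposited in a table of their own, and FPKM values of all 12 libraries in 1 table. The limma test on log2(FPKM + 1) called 8758 genes, of which 7337 were also called from counts, none with the opposite sign. FPKM and counts are of the same libraries, so the shared signs are no independent check.

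Markers of root cell types moved with Pi supply. RCc3, a gene of root tissue, rose from 906, 730.5 and 1165 CPM in +Pi to 2656, 1735 and 2438 CPM in low-Pi (log2 fold change 1.29). Lsi1 and Lsi2, silicon transporters of the exodermis and endodermis, fell by 1.79 and 2.14 on the log2 scale. For Lsi1 the levels were 1950.0, 2015 and 1739 CPM in +Pi and 615, 279 and 752 CPM in low-Pi, lowest in low-Pi replicate 2. CESA4 and CESA9, cellulose synthases of xylem walls, rose by 1.16 and 1.07, and CESA7 did not pass (log2 fold change 0.61, adjusted p = 0.177). The leaf genes RBCS2 and RBCS3 summed to at most 0.821 CPM in any Os1400 library. The 20 listed genes with a chlorophyll a/b binding domain, tested or not, summed to 47.0 to 67.1 CPM in +Pi and 54.3 to 70.9 CPM in low-Pi. Fewer cells of a type and less RNA per cell cannot be told apart in bulk roots, and the part of these markers in the results was not tested.

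The response reached 8191 genes, 29.6% of those tested, at an FDR of 0.05 by the edgeR quasi-likelihood test with p-values adjusted by the Benjamini-Hochberg method. Of these, 4325 (15.6% of genes) were higher and 3866 (14.0%) lower in low-Pi. Counts of called members in the lists below are to be read against these shares, which rose with the mean level of a gene. Of the 6911 genes tested with the lowest mean level 6.31% were called. Of the 6912 with the highest mean level 50.3% were called, 28.6% higher and 21.7% lower. No list was compared with genes of similar mean level, so the part of level in the list shares was not tested. At least 2-fold changes numbered 2282 up (8.25%) and 2186 down (7.91%). The 3 low-Pi levels did not overlap the 3 +Pi levels for 12809 genes (46.3%), so a lack of overlap in a gene named below is common here. The balance turned with limma on FPKM, to 3811 higher and 4947 lower with 1 added to each value and to 3711 and 4775 with 0.1. The median log2 fold change over all genes was -0.0028. Of the genes tested, 385 reached the level the filter asks for, 0.295 CPM, in libraries of 1 supply only, and such a gene could enter only through the supply where it is high. The count was 7959 without low-Pi replicate 2, and leaving out other single libraries gave 5830 to 8039. When all 12 libraries shared 1 estimate of the spread, 2559 genes passed, of which 2558 were among the 8191, and 56 of the 162 called genes of the lists and rankings below missed the threshold.

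**Figure D1:**
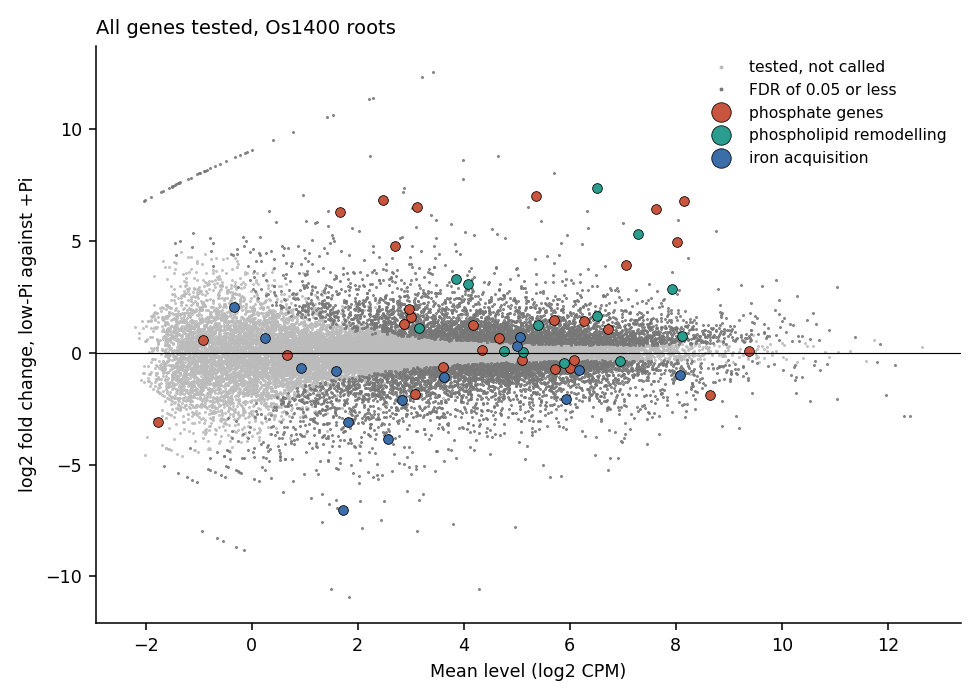
Log2 fold change of low-Pi against +Pi (y axis) by mean log2 CPM (x axis) for 27647 genes in Os1400 roots, dark grey at an FDR of 0.05 or less. Phosphate genes (red) reach 7.01 (SPX6), phospholipid genes (green) 7.37 (Os08g0299400) and iron genes (blue) -7.05 (IRO2). IRO2 entered the test through +Pi only, the supply where it is high. Dots on slanted lines are genes without counts in 1 supply, whose fitted fold depends on the prior count.

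SPX genes encode the Pi sensors that bind PHR2. Of 10 listed, 9 were tested, 6 rose and 1 fell (median log2 fold change 3.94). SPX5 (Os03g0406100, chromosome 3, 16645244 to 16646434 in the coordinates of the files, whose build is not given) rose from 5.94, 3.62 and 4.06 CPM in +Pi to 440.3, 336 and 389.8 CPM in low-Pi. The groups lay far apart (log2 fold change 6.42 ± 0.23 (SE), adjusted p = 2.94e-06). SPX1, an inhibitor of PHR2, rose from 21.9, 12.2 and 14.9 CPM in +Pi to 279, 237 and 235 CPM in low-Pi, also without overlap (log2 fold change 3.94 ± 0.22 (SE), adjusted p = 4.41e-06). SPX6 rose from 0.198, 0.527 and 1.12 CPM in +Pi to 89.6, 77.1 and 76.6 CPM in low-Pi (log2 fold change 7.01 ± 0.41 (SE), adjusted p = 5.55e-06). Its +Pi level, like those of SPX2 and SPX3, was close to 0. SPX2 had 0.0566, 0.479 and 0 CPM in +Pi and 20.1, 13.2 and 18.5 CPM in low-Pi, and SPX3 had 0, 0.264 and 0 CPM in +Pi and 13.1, 9.99 and 9.69 CPM in low-Pi. SPX2 rose (adjusted p = 0.000214), with a fold that rests on few +Pi counts. SPX3 entered the test through its low-Pi libraries only, and without it 5 of 8 rose (median 2.30). SPX4, which keeps PHR2 out of the nucleus, overlapped, with 20.5, 19.9 and 18.1 CPM in +Pi and 17.9, 24.5 and 20.1 CPM in low-Pi (log2 fold change 0.10, adjusted p = 0.719).

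The SPX-MFS members, related to vacuolar Pi transporters, changed in both directions. SPX-MFS3 fell from 75.7, 83.4 and 75.9 CPM in +Pi to 47.6, 48.4 and 52.5 CPM in low-Pi (log2 fold change -0.66 ± 0.12 (SE), adjusted p = 0.0024). SPX-MFS2 rose from 13.5, 19.6 and 25.3 CPM in +Pi to 29.9, 30.3 and 32.9 CPM in low-Pi (log2 fold change 0.67 ± 0.22 (SE), adjusted p = 0.0414), and leaving out any of 5 of the 6 libraries ended its call (adjusted p 0.0524 to 0.101). SPX-MFS4 overlapped at low levels (log2 fold change 0.56, adjusted p = 0.825), and SPX-MFS1 did not pass the filter. Of the whole SPX list 5 rose and 1 fell of 9 without low-Pi replicate 2.

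PHT1 proteins are the proton-coupled Pi importers of the plasma membrane. Of 13 listed, 8 were tested, 5 rose and none fell (median 1.4986). PT6 (Os08g0564000, chromosome 8, 28244202 to 28246028) rose from 6.08, 6.66 and 2.64 CPM in +Pi to 701, 527 and 465 CPM in low-Pi (log2 fold change 6.78 ± 0.36 (SE), adjusted p = 3.9e-06). PT3 rose from 0.340, 1.03 and 0 CPM in +Pi to 14.4, 3.10 and 20.1 CPM in low-Pi, without overlap (adjusted p = 0.00558). PT10 had 0, 0 and 0.224 CPM in +Pi and 7.26, 3.19 and 8.09 CPM in low-Pi and entered the test through its low-Pi libraries only, as PT5 did through +Pi. Without these, 4 of 6 rose. PT8, a high-affinity importer, rose from 41.0, 50.1 and 35.6 CPM in +Pi to 141, 45.9 and 148 CPM in low-Pi (log2 fold change 1.40 ± 0.36 (SE), adjusted p = 0.0155). Low-Pi replicate 2 lay within the +Pi range for PT8. The same held for PT2, a low-affinity carrier, with 1.90, 5.65 and 4.26 CPM in +Pi and 16.2, 4.39 and 15.2 CPM in low-Pi (log2 fold change 1.60 ± 0.51 (SE), adjusted p = 0.0408). The PT2 call ended without any of 4 single libraries (adjusted p 0.0908 to 0.157) and with limma on FPKM (0.0944 and 0.106), and that of PT8 without +Pi replicate 3 (0.059) or low-Pi replicate 1 (0.07) and with limma (0.067 and 0.0731). PT4 had 4.42, 4.62 and 3.56 CPM in +Pi and 10.1, 1.14 and 19.7 CPM in low-Pi and did not pass (log2 fold change 1.29, adjusted p = 0.209), but did without low-Pi replicate 2 (log2 fold change 1.83, adjusted p = 0.00162). PT1 overlapped, with 33.4, 43.5 and 38.3 CPM in +Pi and 32.8, 13.3 and 44.8 CPM in low-Pi (log2 fold change -0.34, adjusted p = 0.51). PT5 held under 1 CPM in all 6 libraries (log2 fold change -3.08, adjusted p = 0.193).

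PT9 had 0 counts in all +Pi libraries and 8.61, 6.86 and 16.3 CPM in low-Pi, at least 134-fold higher against a floor of 3 counts per +Pi library. It has a row in the low-Pi table only and was not tested. PT7 and PT11, the mycorrhizal importer, also have a row in 1 table, and PT12 and PT13 in none. The number of PHT1 genes that rose was 3 without +Pi replicate 3 or without low-Pi replicate 1, 6 without low-Pi replicate 2, 3 with limma on FPKM, and 2 with the spread shared over 12 libraries, where PT2, PT3 and PT8 missed the threshold (adjusted p = 0.229, 0.28 and 0.232).

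PHO1 proteins export Pi, PHO1;2 into the root xylem. PHO1;2 overlapped at a high level, with 720.5, 615 and 604 CPM in +Pi and 764, 639 and 663 CPM in low-Pi (log2 fold change 0.09, adjusted p = 0.648). PHO1;3 rose from 14.5, 8.91 and 8.45 CPM in +Pi to 20.6, 32.1 and 22.8 CPM in low-Pi (log2 fold change 1.25 ± 0.26 (SE), adjusted p = 0.00514). PHO1;1 lay lower in every low-Pi library, with 17.1, 14.01 and 13.4 CPM in +Pi and 10.9, 7.01 and 10.3 CPM in low-Pi, but missed the threshold (log2 fold change -0.66, adjusted p = 0.0555), and passed by DESeq2 (adjusted p = 0.0456). Its antisense gene rose from 2.75, 4.07 and 2.77 CPM in +Pi to 14.1, 15.4 and 7.64 CPM in low-Pi (log2 fold change 1.95 ± 0.33 (SE), adjusted p = 0.00164). Whether counting used the strand is not given in the sources used here, so reads of these partners cannot be told apart. With the spread shared over 12 libraries PHO1;3 and the antisense gene missed the threshold (adjusted p = 0.0735 and 0.0753).

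**Figure D2:**
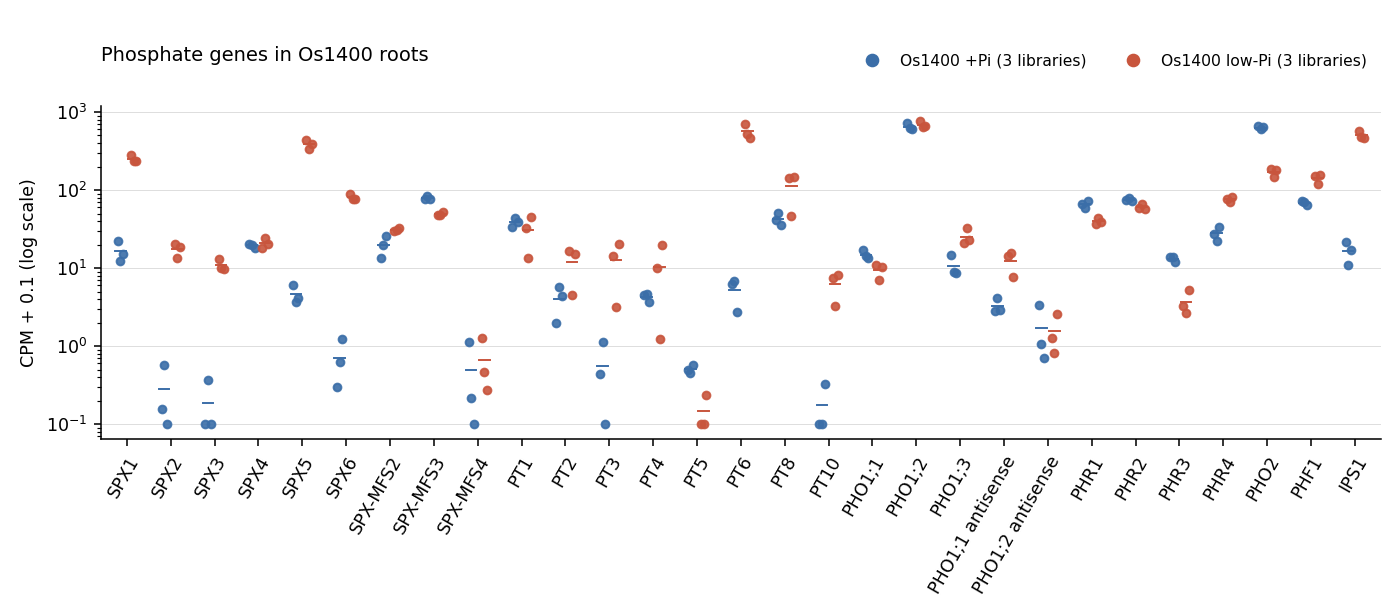
CPM + 0.1 (log axis) of the tested phosphate genes in Os1400 roots, 1 dot per library and a bar at the mean of 3, +Pi in blue and low-Pi in red. SPX1, SPX5, SPX6, PT6 and IPS1 are widely separated, SPX4, PT1 and PHO1;2 overlap, and PHO2 lies lower in low-Pi.

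Of 7 regulators of Pi starvation, 3 rose and 3 fell. IPS1 (Os01g0838350, chromosome 1, 35958635 to 35959019), a non-coding RNA that sequesters miR399, rose from 21.5, 10.8 and 17.2 CPM in +Pi to 566, 475 and 471 CPM in low-Pi (log2 fold change 4.93 ± 0.25 (SE), adjusted p = 3.3e-06). PHO2, a ubiquitin-conjugating enzyme that limits Pi uptake and is a target of miR399, fell from 657, 601 and 638 CPM in +Pi to 187, 149 and 178 CPM in low-Pi (log2 fold change -1.88 ± 0.13 (SE), adjusted p = 1.04e-05). These are the partners of 1 pathway, and neither overlapped, which held for 46.3% of all genes tested. PHF1, which lets PHT1 proteins leave the endoplasmic reticulum, rose from 71.9, 70.8 and 64.3 CPM in +Pi to 151, 119 and 158 CPM in low-Pi (log2 fold change 1.05 ± 0.14 (SE), adjusted p = 0.000442). PHR4, a relative of PHR2, rose by 1.45 (adjusted p = 0.000188), while PHR1 and PHR3, also of this family, fell by 0.71 and 1.87 on the log2 scale (adjusted p = 0.00349 and 0.00115). PHR2 itself was lower in every low-Pi library, with 73.6, 79.3 and 72.5 CPM in +Pi and 58.0, 65.8 and 57.6 CPM in low-Pi, but did not pass (log2 fold change -0.31, adjusted p = 0.0777), and did without low-Pi replicate 2 (adjusted p = 0.0423), where 3 rose and 4 fell of 7. With the spread shared over 12 libraries PHF1, PHR1 and PHR3 missed the threshold (adjusted p = 0.0718, 0.0525 and 0.493).

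Of 6 tested SL biosynthesis genes, 4 rose and none fell. D27, the isomerase that starts the route from carotene, rose from 3.51, 4.19 and 2.87 CPM in +Pi to 13.7, 9.24 and 9.07 CPM in low-Pi (log2 fold change 1.60 ± 0.28 (SE), adjusted p = 0.00227). D17 and D10 are the carotenoid cleavage dioxygenases that make carlactone. D17 rose from 2.60, 2.78 and 2.09 CPM in +Pi to 11.6, 11.8 and 9.94 CPM in low-Pi, and D10 from 0.340, 3.09 and 1.15 CPM in +Pi to 33.8, 14.9 and 21.8 CPM in low-Pi (adjusted p = 0.000252 and 0.00128). Os900, the P450 that makes 4-deoxyorobanchol, the precursor of orobanchol, rose from 0.566, 1.27 and 0.996 CPM in +Pi to 17.7, 7.64 and 9.35 CPM in low-Pi (log2 fold change 3.60 ± 0.44 (SE), adjusted p = 0.000273). No low-Pi library of these 4 genes fell within the +Pi range, and 46.3% of all genes tested did not overlap either. Os1900 and Os5100, other MAX1 homologues, overlapped (log2 fold change -0.28, adjusted p = 0.706, and log2 fold change -0.37, adjusted p = 0.521). D27 and D10, like the NSP2, D53 and IPA1 genes described next, missed the threshold with the spread shared over 12 libraries (adjusted p = 0.188, 0.141, 0.398, 0.0964 and 0.42).

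In the SL signalling list, 3 of 6 rose and 3 fell. The receptor D14 fell from 701, 836 and 756 CPM in +Pi to 174, 144 and 188 CPM in low-Pi (log2 fold change -2.18 ± 0.14 (SE), adjusted p = 8.18e-06). D3, the F-box protein that works with D14, fell from 79.6, 79.8 and 79.9 CPM in +Pi to 21.6, 23.8 and 24.3 CPM in low-Pi (log2 fold change -1.78 ± 0.12 (SE), adjusted p = 1.09e-05). The +Pi levels of D3 were nearly equal. The repressor D53, which D14 and D3 remove, fell by 0.43 on the log2 scale (adjusted p = 0.0171). NSP1 and NSP2, GRAS factors of SL synthesis and symbiosis, both rose, NSP1 from 0.877, 1.27 and 0.299 CPM in +Pi to 11.1, 6.68 and 14.2 CPM in low-Pi (log2 fold change 3.70 ± 0.52 (SE), adjusted p = 0.000608). NSP2 had 0, 1.36 and 0 CPM in +Pi and 10.1, 4.27 and 10.2 CPM in low-Pi, and its call (adjusted p = 0.0275) ended by DESeq2 (adjusted p = 0.19) and without low-Pi replicate 1 (0.0922) or replicate 3 (0.0642). IPA1, an SPL factor bound by D53, rose by 0.66 (adjusted p = 0.0267). Leaving out single libraries ended the call of D53 in 3 cases (adjusted p 0.0707 to 0.0801) and of IPA1 in 4 (0.0517 to 0.0966). Of this list 2 rose and 3 fell of 6 without low-Pi replicate 2, and 1 rose and 2 fell of 6 in the fit of 12 libraries.

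Of 7 genes of mycorrhiza signalling, 2 rose and none fell (median 0.35). That is 28.57% called, near the 29.6% of all genes tested. CYCLOPS, a transcription factor of symbiosis, rose from 7.30, 5.34 and 6.25 CPM in +Pi to 15.5, 13.1 and 19.8 CPM in low-Pi (log2 fold change 1.36 ± 0.23 (SE), adjusted p = 0.00195), and the receptor kinase SYMRK from 26.2, 21.9 and 25.2 CPM in +Pi to 42.9, 33.6 and 45.8 CPM in low-Pi (log2 fold change 0.74 ± 0.16 (SE), adjusted p = 0.00687). CCaMK, the calcium-dependent kinase that activates CYCLOPS, overlapped (log2 fold change 0.41, adjusted p = 0.319) and passed without low-Pi replicate 2 (adjusted p = 0.0434). POLLUX, CASTOR, CERK1 and D14L did not pass, and SYMRK missed the threshold with the spread shared over 12 libraries (adjusted p = 0.0518).

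**Figure D3:**
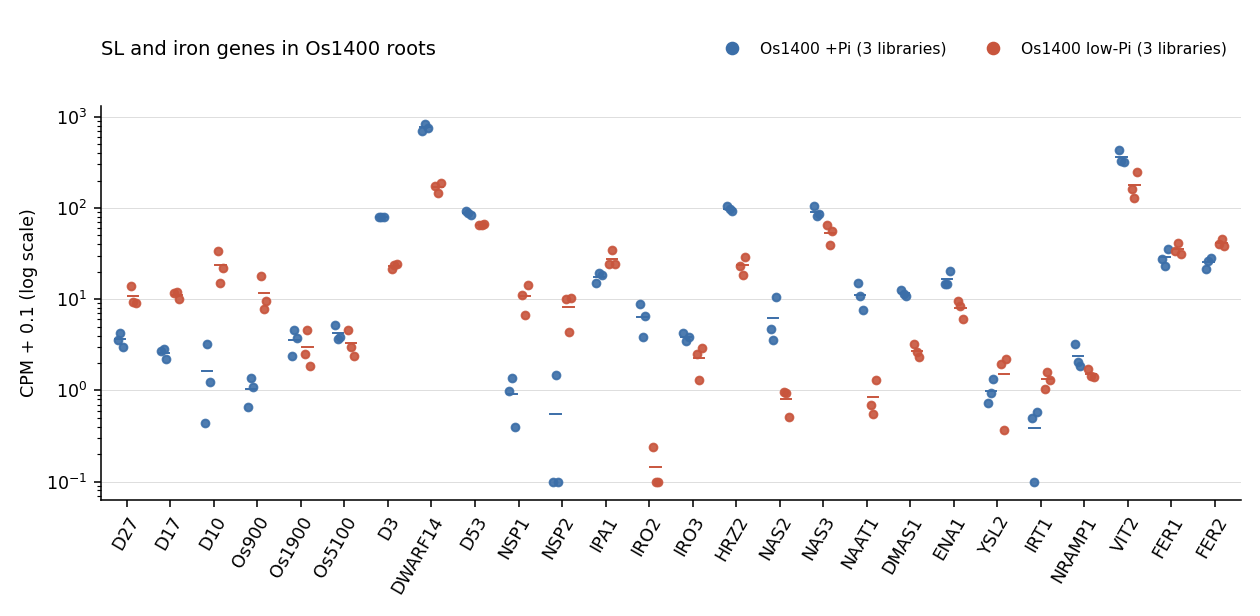
CPM + 0.1 (log axis) of the tested SL and iron genes in Os1400 roots, 1 dot per library and a bar at the mean of 3, +Pi in blue and low-Pi in red. D27, D17, D10, Os900 and NSP1 lie higher in low-Pi, and DWARF14 (D14), D3, IRO2, HRZ2, NAS2, NAAT1 and DMAS1 lie lower. IRO2 entered the test through +Pi only.

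More iron genes fell than rose. Rice chelates iron with mugineic acids made from nicotianamine, and of 14 tested genes of iron uptake and storage 8 fell and 1 rose (median -0.91). IRO2, a bHLH activator of this route, fell from 8.74, 3.79 and 6.53 CPM in +Pi to 0.138, 0 and 0 CPM in low-Pi. It held counts in only 1 low-Pi library and entered the test through +Pi only, and without it 7 of 13 fell (median -0.80). NAS2, a nicotianamine synthase, fell from 4.56, 3.45 and 10.6 CPM in +Pi to 0.865, 0.843 and 0.417 CPM in low-Pi (log2 fold change -3.12 ± 0.55 (SE), adjusted p = 0.00211). NAAT1, the aminotransferase that follows, fell from 14.8, 10.7 and 7.55 CPM in +Pi to 0.588, 0.452 and 1.22 CPM in low-Pi (log2 fold change -3.87 ± 0.45 (SE), adjusted p = 0.000205). DMAS1, the last enzyme to deoxymugineic acid, fell by 2.14, NAS3 by 0.77 and the nicotianamine exporter ENA1 by 1.08 on the log2 scale. NAS1 had 3.42, 2.54 and 2.92 CPM in +Pi and 0 counts in low-Pi, at least 30.5-fold lower against a floor of 3 counts per low-Pi library. It has a row in the +Pi table only and was not tested.

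HRZ2, a ubiquitin ligase that restrains the iron response, fell from 105, 96.6 and 92.6 CPM in +Pi to 23.1, 18.2 and 29.0 CPM in low-Pi (log2 fold change -2.06 ± 0.17 (SE), adjusted p = 3.49e-05), and the vacuolar importer VIT2 fell from 434, 329 and 322 CPM in +Pi to 162, 129 and 249 CPM in low-Pi (log2 fold change -1.01 ± 0.23 (SE), adjusted p = 0.0082). The iron store FER2 (ferritin) rose from 21.4, 26.2 and 28.4 CPM in +Pi to 40.4, 45.6 and 38.3 CPM in low-Pi (log2 fold change 0.71 ± 0.15 (SE), adjusted p = 0.00686). IRO3, YSL2, IRT1, NRAMP1 and FER1 did not pass. With the spread shared over 12 libraries 3 genes of the list fell and none rose, and NAS2, NAS3, NAAT1, DMAS1, ENA1 and FER2 missed the threshold (adjusted p 0.0901 to 0.853). The NAS3 call ended without +Pi replicate 1 (adjusted p = 0.0591).

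Lipid remodelling frees Pi by replacing phospholipids. Of 13 genes 9 rose and 2 fell (median 1.26). SQD2, a synthase of sulfolipid, rose from 6.34, 6.16 and 10.4 CPM in +Pi to 323, 222 and 369 CPM in low-Pi (log2 fold change 5.32 ± 0.28 (SE), adjusted p = 3.71e-06). The galactolipid (MGDG) synthase gene Os08g0299400 rose from 0.538, 2.42 and 0.249 CPM in +Pi to 193, 152 and 198 CPM in low-Pi (log2 fold change 7.37 ± 0.60 (SE), adjusted p = 2.67e-05), and Os02g0802700 rose by 1.64. Another, MGD1, overlapped (log2 fold change 0.04, adjusted p = 0.865). PEAMT1, a phosphoethanolamine methyltransferase, rose from 52.8, 68.9 and 54.2 CPM in +Pi to 435, 473 and 368 CPM in low-Pi (log2 fold change 2.86 ± 0.16 (SE), adjusted p = 4.41e-06). Among the phospholipases, NPC3 rose from 2.80, 4.53 and 3.49 CPM in +Pi to 31.2, 10.5 and 49.3 CPM in low-Pi and NPC4 from 2.18, 2.56 and 3.31 CPM in +Pi to 28.3, 13.2 and 37.3 CPM in low-Pi, both lowest of the low-Pi libraries in replicate 2. NPC1, NPC5 and PLDzeta2 rose by 0.74, 1.09 and 1.26, and PLDzeta1 overlapped. NPC2 and PEAMT2 fell by 0.35 and 0.45 on the log2 scale, calls that ended without any of 5 and any of 3 single libraries (adjusted p 0.0717 to 0.177 and 0.0997 to 0.116). Without low-Pi replicate 2, 9 rose and 1 fell of 13. NPC4, NPC5, NPC2 and PEAMT2 missed the threshold with the spread shared over 12 libraries (adjusted p 0.0543 to 0.93).

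Phosphatases and phosphodiesterases release Pi from organic esters. Of 23 genes named as purple acid phosphatases 11 rose and 2 fell, and of 10 glycerophosphodiester phosphodiesterases (GDPD), which break down lipid head groups, 7 rose and 1 fell. PAP23 rose from 2.94, 4.17 and 2.42 CPM in +Pi to 120.0, 111 and 131 CPM in low-Pi (log2 fold change 5.24 ± 0.22 (SE), adjusted p = 2.94e-06). PAP3B (Os10g0116800) rose from 3.88, 1.53 and 4.68 CPM in +Pi to 175, 119.5 and 179.5 CPM in low-Pi, and PAP10C (Os12g0637100) from 35.3, 45.0 and 34.7 CPM in +Pi to 343, 189 and 430.3 CPM in low-Pi. The acid phosphatase ACP1 (Os01g0720400), of another family, rose from 23.0, 22.8 and 12.2 CPM in +Pi to 1011, 696 and 822 CPM in low-Pi (log2 fold change 5.45 ± 0.28 (SE), adjusted p = 3.3e-06). Of the GDPD genes Os03g0603600 rose from 7.64, 9.72 and 9.09 CPM in +Pi to 118, 69.7 and 147 CPM in low-Pi (log2 fold change 3.66 ± 0.26 (SE), adjusted p = 1.39e-05), and Os02g0514500 from 4.75, 4.98 and 4.91 CPM in +Pi to 24.7, 24.1 and 29.1 CPM in low-Pi. Of 51 genes with a calcineurin-like phosphoesterase domain 14 rose and 7 fell (27.45% and 13.73%, against 15.6% and 14.0% of all genes tested). These counts were lower in the fit of 12 libraries, where 6 rose and 2 fell of 23 purple acid phosphatases, 3 rose and none fell of 10 GDPD and 7 rose and 3 fell of 51 calcineurin-like genes. Of the calcineurin-like genes 13 rose and 4 fell of 51 without +Pi replicate 1 and 11 rose and 4 fell of 51 without low-Pi replicate 1.

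Steps that bypass Pi- or ATP-using reactions of glycolysis, listed together with alternative oxidases, moved both ways, with 2 of 16 higher and 6 lower (median -0.57). Alternative oxidase 1B was among the 6 lower genes. Its call ended without +Pi replicate 1 (adjusted p = 0.328) or low-Pi replicate 1 (0.0944). It also ended with limma on FPKM (0.0972 and 0.0632) and with the spread shared over 12 libraries (0.397), and DESeq2 gave it no adjusted p. A gene for the alpha subunit of PFP, the pyrophosphate-dependent phosphofructokinase, Os02g0714200, rose from 45.2, 52.2 and 57.1 CPM in +Pi to 369, 420.4 and 262 CPM in low-Pi (log2 fold change 2.77 ± 0.19 (SE), adjusted p = 1.04e-05). Another, Os06g0326400, rose by 1.16, whereas Os08g0345700 and Os09g0298100 fell by 0.60 and 1.37 on the log2 scale. PPDK1, pyruvate orthophosphate dikinase, fell from 348, 227 and 121 CPM in +Pi to 7.96, 6.71 and 11.6 CPM in low-Pi (log2 fold change -4.73 ± 0.39 (SE), adjusted p = 2.73e-05). PEP carboxylase 1 (Os02g0244700) fell from 199, 184 and 217 CPM in +Pi to 107, 113 and 97.9 CPM in low-Pi (log2 fold change -0.92 ± 0.12 (SE), adjusted p = 0.000469). The last 3 PFP genes missed the threshold with the spread shared over 12 libraries (adjusted p 0.183 to 0.335), where 1 rose and 2 fell of 17.

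Core histones, which package DNA, rose in 22 of 28 genes and fell in none (median 0.95), for example Os12g0438000, which rose from 45.5, 42.7 and 38.1 CPM in +Pi to 137, 143 and 97.1 CPM in low-Pi (log2 fold change 1.58 ± 0.17 (SE), adjusted p = 0.000117). A pair of histone H3 genes lies outside this list, because the table holds no histone domain for them, and was chosen after their values were seen. Of these H3.2A (Os04g0450800) fell from 80.1, 72.9 and 81.6 CPM in +Pi to 52.4, 49.96 and 46.1 CPM in low-Pi (log2 fold change -0.66 ± 0.12 (SE), adjusted p = 0.00273), and Os03g0390600 overlapped (log2 fold change -0.10, adjusted p = 0.557). Genes of ribosomal proteins rose in 156 of 274 and fell in 4 (median 0.61). The summed level of the 335 listed, tested or not, was 33460.0 to 34980.0 CPM in +Pi and 42240.0 to 65220.0 CPM in low-Pi. One example is Os07g0616600, which rose from 172, 165 and 161 CPM in +Pi to 516, 624 and 358 CPM in low-Pi (log2 fold change 1.59 ± 0.19 (SE), adjusted p = 0.000219). HSP70 chaperone genes rose in 9 of 20 and fell in none, with Os03g0276500 from 173, 159 and 175 CPM in +Pi to 871, 729 and 644 CPM in low-Pi. Small heat shock (HSP20) genes rose in 7 of 25 and fell in 1 (32.0% called, against 29.6% of all genes tested). The 1 that fell was HSP23.2, from 29.4, 37.2 and 29.4 CPM in +Pi to 3.87, 1.99 and 2.47 CPM in low-Pi. Of HSP20 genes 3 of 26 rose and 1 fell without +Pi replicate 1, +Pi replicate 2 or low-Pi replicate 1, and 1 rose and none fell of 26 in the fit of 12 libraries, where HSP23.2 missed the threshold (adjusted p = 0.244). Of HSP70 genes 5 rose and none fell of 20 in that fit. For ribosomal proteins 127 of 275 rose and 4 fell without low-Pi replicate 2, and 56 of 278 rose and 2 fell with the spread shared over 12 libraries.

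Expansins loosen cell walls, and 19 of 43 rose and 4 fell (median 0.83). Alpha-expansin 1 (Os04g0228400) rose from 9.03, 13.7 and 12.01 CPM in +Pi to 118, 142 and 143 CPM in low-Pi (log2 fold change 3.54 ± 0.18 (SE), adjusted p = 3.3e-06), and beta-expansin 6 from 22.2, 20.5 and 14.2 CPM in +Pi to 103, 96.6 and 107 CPM in low-Pi. AUX/IAA genes encode repressors that auxin removes and re-induces, and 11 of 34 rose and 2 fell. IAA13 rose from 137, 150.3 and 159 CPM in +Pi to 434, 376 and 428 CPM in low-Pi (log2 fold change 1.47 ± 0.12 (SE), adjusted p = 3.02e-05), and IAA11 from 22.7, 18.0 and 24.3 CPM in +Pi to 77.6, 75.7 and 108 CPM in low-Pi. Of 10 GH3 genes, which conjugate auxin or jasmonate to amino acids, 3 fell and none rose (30.0% called, against 29.6% of all genes tested). Os01g0221000 fell from 19.9, 33.5 and 27.9 CPM in +Pi to 4.60, 4.91 and 5.45 CPM in low-Pi. SAUR genes, early auxin targets, split into 4 higher and 6 lower of 26 (15.4% and 23.1%, against 15.6% and 14.0% of all genes tested). Without low-Pi replicate 2, 2 rose and 3 fell of 11 GH3, 13 rose and 3 fell of 34 AUX/IAA and 5 rose and 5 fell of 26 SAUR genes. In the fit of 12 libraries none rose and none fell of 11 GH3, 8 rose and 1 fell of 34 AUX/IAA and 3 rose and 1 fell of 28 SAUR genes. For expansins 12 rose and 2 fell without low-Pi replicate 1, 22 rose and 4 fell of 45 without low-Pi replicate 2, and 8 rose and 2 fell with the spread shared over 12 libraries, in which Os01g0221000 missed the threshold (adjusted p = 0.385).

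**Figure D4:**
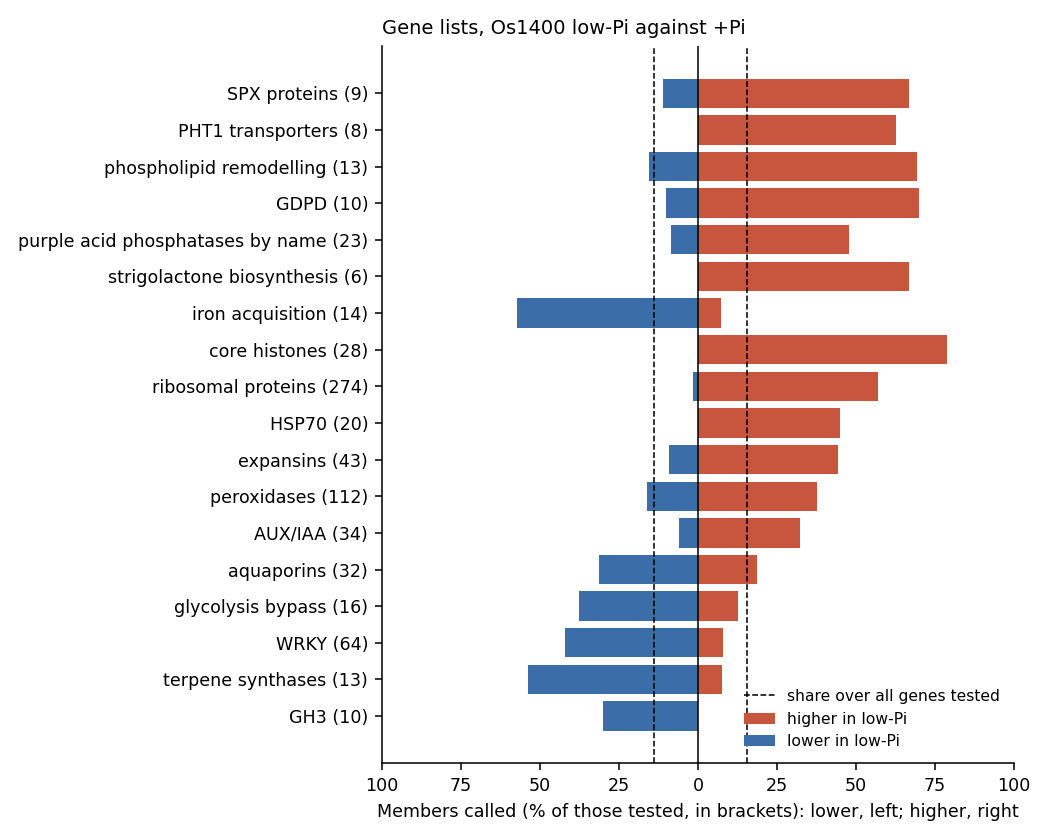
Share of tested genes of each list (number tested in brackets) called higher (red, to the right) or lower (blue, to the left) in low-Pi. Dashed lines mark 15.6% and 14.0%, the shares over all genes, which are not matched to the mean level of a list. Core histones (22 of 28) pass them on the right and iron genes on the left (8 of 14, or 7 of 13 without IRO2).

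WRKY transcription factors, many of which act in defence, fell in 27 of 64 genes and rose in 5 (median -0.81). WRKY45, a regulator of blast resistance, fell from 82.2, 75.2 and 88.3 CPM in +Pi to 31.5, 32.9 and 34.6 CPM in low-Pi (log2 fold change -1.31 ± 0.13 (SE), adjusted p = 6.54e-05), and WRKY70 from 21.3, 17.3 and 14.6 CPM in +Pi to 2.39, 2.65 and 3.23 CPM in low-Pi. Terpene synthases, some of which make diterpenoid phytoalexins, fell in 7 of 13 and rose in 1, with terpene synthase 13 (Os03g0361700) from 17.2, 8.77 and 10.1 CPM in +Pi to 0.519, 0.150 and 0.243 CPM in low-Pi (log2 fold change -5.31 ± 0.50 (SE), adjusted p = 5.94e-05). Class III peroxidases, enzymes of the cell wall, rose in 42 and fell in 18 of 112 (37.5% and 16.07%, against 15.6% and 14.0% of all genes tested). Peroxidase 34 (Os03g0121300) rose from 20.2, 21.1 and 16.6 CPM in +Pi to 185, 153 and 119 CPM in low-Pi (log2 fold change 2.98 ± 0.19 (SE), adjusted p = 7.17e-06), and peroxidase 61 (Os04g0688300) fell from 53.1, 56.9 and 32.5 CPM in +Pi to 3.74, 3.43 and 4.03 CPM in low-Pi. Genes with a glutathione S-transferase domain split into 6 higher and 9 lower of 32 (18.75% and 28.12%, against 15.6% and 14.0% of all genes tested). Of these, 3 of the 4 with the smallest p are named as gamma subunits of elongation factor 1. With the spread shared over 12 libraries 6 WRKY genes fell and 1 rose, peroxidases split 23 to 6, and WRKY45, WRKY70, terpene synthase 13 and peroxidase 61 missed the threshold (adjusted p 0.0627 to 0.394). Without +Pi replicate 1, 32 peroxidases rose and 9 fell, and 47 rose and 16 fell of 115 without low-Pi replicate 2. Of terpene synthases none rose and 1 fell of 13 in the fit of 12 libraries, and the single rise was lost without any of 5 of the 6 libraries and with limma on FPKM. Of glutathione S-transferase genes 4 rose and 4 fell of 33 in that fit, 5 rose and 5 fell of 32 without +Pi replicate 1, and 5 rose and 5 fell of 33 without +Pi replicate 2.

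Aquaporins, channels for water, rose in 6 of 32 genes and fell in 10 (18.75% and 31.25%, against 15.6% and 14.0% of all genes tested). Of these genes 2 rose and 6 fell of 33 in the fit of 12 libraries and 8 rose and 10 fell of 33 without low-Pi replicate 2. The summed level of the 46 aquaporins listed, tested or not, was 14050.0 to 14800.0 CPM in +Pi and 6770.0 to 10530.0 CPM in low-Pi. PIP2;5 (Os07g0448400) fell from 195, 165 and 153 CPM in +Pi to 20.5, 19.9 and 21.2 CPM in low-Pi (log2 fold change -3.06 ± 0.14 (SE), adjusted p = 3.06e-06). PIP2;3 (Os04g0521100) fell from 1093, 1120.0 and 975 CPM in +Pi to 137, 78.9 and 88.5 CPM in low-Pi, and PIP1;3 (Os02g0823100) from 3784, 3532 and 2929 CPM in +Pi to 1004, 531 and 915 CPM in low-Pi. These 3 plasma membrane channels did not overlap between supplies, which held for 46.3% of all genes tested. Nitrate and peptide transporters (NPF) rose in 5 of 66 and fell in 12 (7.58% and 18.18%, against 15.6% and 14.0% of all genes tested). NRT1.1B (Os10g0554200), a nitrate transporter, fell from 59.1, 43.3 and 55.0 CPM in +Pi to 7.30, 5.09 and 11.9 CPM in low-Pi (log2 fold change -2.70 ± 0.29 (SE), adjusted p = 0.000127). Without low-Pi replicate 2, 8 NPF genes rose and 10 fell, and with the spread shared over 12 libraries 4 fell and none rose. Of 8 ammonium transporters 1 rose (12.5%, against 15.6% of all genes tested) and none fell.

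Genes outside the lists were among the 10 with the smallest p or the largest fold in each direction. Os11g0658900, with a class 3 lipase domain, rose from 0.651, 0.431 and 0.0996 CPM in +Pi to 110.5, 88.6 and 111 CPM in low-Pi (log2 fold change 8.05 ± 0.39 (SE), adjusted p = 3.06e-06). LPR5 (Os01g0127200), a multicopper oxidase named for the low-phosphate root response, rose from 4.05, 0.695 and 1.22 CPM in +Pi to 164, 73.1 and 238 CPM in low-Pi (log2 fold change 6.34 ± 0.66 (SE), adjusted p = 0.000105). Os10g0552800, named as a proline- or glycine-rich protein, rose from 156, 168 and 212 CPM in +Pi to 1899, 1734 and 1514 CPM in low-Pi. None of these overlapped, which held for 46.3% of all genes tested. Of genes that fell, SWEET12, of the SWEET sugar transporter family, had 41.4, 44.9 and 30.2 CPM in +Pi and 0.0692, 0 and 0 CPM in low-Pi. That is 4550 counts over +Pi and 2 over low-Pi, a depth-scaled ratio of 1848 with an exact 95% interval of 511 to 15260.0, for counting error only. ROOT ARCHITECTURE ASSOCIATED 1 (Os01g0257300) fell from 371, 392 and 314 CPM in +Pi to 54.1, 48.6 and 47.7 CPM in low-Pi (log2 fold change -2.84 ± 0.14 (SE), adjusted p = 3.06e-06). ABI5 (Os01g0859300), a bZIP factor of abscisic acid signalling, fell from 26.5, 15.6 and 10.7 CPM in +Pi to 0.381, 0 and 0.174 CPM in low-Pi (log2 fold change -6.59 ± 0.70 (SE), adjusted p = 0.000126).

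Whether the response differed from that of WT was tested as the interaction of genotype and Pi supply in all 12 libraries. Of 28691 genes tested 3838 (13.4%) passed, 3028 with a more positive and 810 with a more negative change in Os1400. By DESeq2 5583 passed, split 3728 to 1855. Of the 3838, 1864 had 0 counts in at least 1 WT low-Pi library, and the share over all genes tested was not computed. Of the 3838, 1956 had 10 or more counts in all 12 libraries, as did 15280 of the 28691 genes tested. The number that passed was 2252, split 1075 to 1177, when only genes with 10 or more counts in every library were tested. It was 6658 or 6552 when replicate 2 or 3 of WT low-Pi was left out. SPX1 rose by 5.38 on the log2 scale in WT, and Os1400 minus WT was -1.43 (adjusted p = 0.0154). SPX5 rose by 8.40 in WT, with a difference of -1.98 (adjusted p = 0.0141), so the rise of both Pi sensors was smaller in Os1400. The factor PHR1 fell by 2.43 in WT, with a difference of 1.73 (adjusted p = 0.00279). These 3 calls held under all 17 alternatives run for them. SPX2, SPX-MFS3, PHO2, D27, SYMRK, NPC2 and PLDzeta1 also passed, but not under every alternative. Of genes of the other lists named above, the difference was -1.71 (adjusted p = 0.0149) for PIP2;3, -1.89 (adjusted p = 0.024) for NRT1.1B, 1.09 (adjusted p = 0.0104) for IAA13 and -1.11 (adjusted p = 0.0111) for PEP carboxylase 1, with a log2 fold change of 0.20 in WT. It was 1.70 (adjusted p = 0.0233) for the PFP gene Os08g0345700 and 1.0005 (adjusted p = 0.046) for CESA4. CESA7 and the PFP gene Os09g0298100, with 0 counts in all WT low-Pi libraries, passed as well (adjusted p = 0.00078 and 0.0011). Alternatives were not examined for the difference of these 8 genes. Os11g0658900, named above outside the lists, passed too, with a difference of -6.80 (adjusted p = 0.00796). It had 0 counts in all WT +Pi libraries, so this fitted difference depends on the prior count, and its alternatives were not examined. Examples of named genes whose difference did not pass were PT6 with -1.44 (adjusted p = 0.0681), IPS1 with -0.87 (0.0831), D10 with -0.69 (0.876), D14 with -0.58 (0.58), SQD2 with 0.61 (0.574) and IRO2 with 3.79 (0.251). Other genes named above did not pass either, such as PAP23 (adjusted p = 0.0552) and PIP2;5 (0.149). A p above the threshold does not show that the genotypes responded alike.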

How the data were processed

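Root RNA was sequenced from 12 libraries. Per the labels' processing notes, HISAT2 2.0.5, featureCounts 1.5.0-p3 and DESeq2 were used, and the genome build is not given in the sources used here. The authors deposited whole-number read counts in 1 table per Pi supply, and FPKM values for all genes. The tables also hold normalized counts, a signal that the authors divided by size factors, and the log2 fold changes and p-values of the authors' own comparisons, none of which were used; 24 columns of per-sample values stayed unused. Tables were joined by gene identifier, genes filtered with filterByExpr, scaled by TMM and tested with the edgeR 4.0.16 quasi-likelihood test in R 4.3.3, adjusted by the Benjamini-Hochberg method over all genes tested at an FDR of 0.05. The script was tested on simulated data with fewer changed genes and a smaller spread than here. The low gene numbers of the WT low-Pi libraries were not simulated, so error rates for these data were not measured. Alternatives were DESeq2 1.42.0, limma 3.58.1 on log2(FPKM + 1) and log2(FPKM + 0.1), other scalings, no filter, a replicate block, leaving out each library and a fit of 12 libraries. Members and lists were chosen with earlier results of these data known. Named genes are list members, up to 4 called genes with the smallest p per domain list, the 10 annotated genes with the smallest p or largest fold in each direction, and genes near 0 in 1 supply. The H3 pair and the SWEET12 interval were chosen after values were seen. Promoter sequences were not used here.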

Additional observations from a re-analysis of the deposited data

Results flagged for a closer look

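For 20 genes the change with Pi differed between Os1400 and WT by the interaction test. They are the 5 annotated genes of smallest p in each direction and 10 members of the phosphate, SL, mycorrhiza and lipid lists. Values are log2 differences, Os1400 minus WT, with p-values adjusted by the Benjamini-Hochberg method from edgeR.

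The silicon efflux transporter gene Os03g0147400 differed by 13.01 (adjusted p = 3.18e-05), the potassium transporter gene HAK9 (Os07g0679000) by 9.87 (adjusted p = 3.6e-05), Os06g0638500 by 13.21 (adjusted p = 3.6e-05) and ARID5 (Os09g0434100) by 12.59 (adjusted p = 3.94e-05). WT low-Pi libraries held at most 1 count of each of these 4 genes, so the fitted differences depend on the prior count and are no bound. In Os1400 the log2 changes with low-Pi were -1.91, -1.51, 0.64 and -0.48. UGP1 (Os09g0553200), a UDP-glucose pyrophosphorylase, differed by 4.31 (adjusted p = 6.5e-05). It rose by 2.13 in Os1400, whereas WT held 1836, 1455, 1467 counts in +Pi and 206, 234, 254 in low-Pi. The difference was negative for the histone H3 genes Os03g0390600, -1.85 (adjusted p = 0.0002), and H3.2A (Os04g0450800), -1.62 (adjusted p = 0.00033), which rose by 1.76 and 0.97 in WT. It was also negative for the 6 kDa subunit of mitochondrial ATP synthase (Os03g0606200), -1.81 (adjusted p = 0.000239), for Os04g0676700, -2.44 (adjusted p = 0.000408), and for arginine decarboxylase (Os06g0131300), -1.87 (adjusted p = 0.000531). These 10 differences passed under every alternative run for them. For the 4 genes with at most 1 count in WT low-Pi these were 16 alternatives, against 17 for the others. The fit of genes with 10 or more counts in all 12 libraries leaves those 4 out and could not test them.

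Of the list members, the difference and the number of alternatives in which it passed were SPX1 -1.43 (adjusted p = 0.0154, 17 of 17 alternatives), SPX5 -1.98 (adjusted p = 0.0141, 17 of 17 alternatives), PHR1 1.73 (adjusted p = 0.00279, 17 of 17 alternatives). Differences that did not pass under every alternative were SPX2 3.77 (adjusted p = 0.0476, 6 of 16 alternatives), SPX-MFS3 0.75 (adjusted p = 0.0391, 4 of 17 alternatives), PHO2 1.89 (adjusted p = 0.0319, 7 of 17 alternatives), D27 -3.52 (adjusted p = 0.0279, 10 of 17 alternatives), SYMRK -1.04 (adjusted p = 0.0402, 8 of 17 alternatives), NPC2 0.74 (adjusted p = 0.0373, 5 of 17 alternatives), PLDzeta1 1.15 (adjusted p = 0.0162, 15 of 17 alternatives).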

How the results depend on the processing

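All alternatives concern the FDR of 0.05. For low-Pi against +Pi in Os1400 the 8191 genes became 8127 to 9184 with DESeq2, other scalings, other filters or limma on FPKM, and 5830 to 8039 on leaving out 1 library. The number was 2559 in the fit of all 12 libraries and 4468 with a 2-fold minimum added. For the difference from WT, 3838 genes became 3706 to 5583 with DESeq2, another scaling or no filter, 2252 among genes with 10 or more counts in all libraries, and 2619 to 6658 on leaving out 1 library. The median difference over all genes was -0.0404 among genes with 10 or more counts and 0.27 to 0.58 under the other alternatives, so directions of the difference are relative to that offset. No called gene of the 162 in the lists and rankings changed sign.

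Signs changed only for genes that were not called, and the cause was not tested. On log2(FPKM + 1) and log2(FPKM + 0.1) the log2 fold changes were -0.0109 and -0.0121 for SPX4, -0.009 and -0.009 for PHO1;2, -0.0558 and -0.0588 for MGD1 and -0.0089 and -0.0107 for PLDzeta1. Leaving out 1 library gave ranges of -0.0306 to 0.20 for SPX4, -0.53 to 3.18 for SPX-MFS4, -0.74 to 0.0178 for PT1, -0.74 to 0.92 for the PHO1;2 antisense gene, -0.0351 to 0.66 for CCaMK, -0.55 to 1.03 for D14L, -0.0623 to 0.15 for MGD1 and -0.22 to 0.55 for AOX1A.

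Same-numbered +Pi and low-Pi libraries did not deviate together (r = 0.024, 0.0212 and -0.0426). These values gave no sign that the numbers pair the libraries but cannot exclude it. A replicate block gave 7434 genes for low-Pi against +Pi and 3088 for the difference from WT, and a log2 fold change of 0.0134 for the PHO1;2 antisense gene. The calls of PT2 (adjusted p = 0.104) and NPC2 (0.0852) ended with the block. Changes of genes near or under 3 counts per library, 0.0738 to 0.101 CPM, were not detectable at this depth.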

Other observations

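Some genes were seen in 1 Pi supply only. In Os1400, 12 genes had at most 3 counts in every +Pi library and at least 100 in every low-Pi library, and 11 showed the reverse. Of these, 8 and 5 have a row in 1 count table only. The cytochrome P450 gene Os06g0570566 had 0 counts in +Pi and 58.6, 20.5 and 34.3 CPM in low-Pi, at least 479-fold higher against a floor of 3 counts per +Pi library. Os10g0378100, also with a P450 domain, had 28.3, 14.8 and 21.3 CPM in low-Pi and 0 counts in +Pi, at least 272-fold higher. Os08g0323400, with a rubredoxin domain, had 9.58, 6.77 and 12.7 CPM in low-Pi and 0 counts in +Pi.

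With a missing row taken as 0, 127 more genes passed the filter, 86 from the +Pi table and 41 from the low-Pi table. All were called, and as they passed only through the supply in which they were seen, that count is no result.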
